A study of Mus musculus with 4 samples.

Results

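The Sox family comprises transcription factors that share an HMG box, the DNA-binding domain first described in the testis-determining protein Sry. The members studied here are all genes whose single platform symbol is Sox followed by a number. They were 13 genes read by 22 probe sets, out of 8251 singly named genes and 12422 probe sets. The symbols alone define the members, but the family was chosen from earlier results of this same comparison, in which Sox2, Sox4 and Sox11 stood out. For that reason the values of the members are given as a description with no p-value, and the number past the threshold is printed beside the share of all probe sets and supports nothing by itself.

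RNA came from the prefrontal cortex of female mice. There were 2 pools of transgenic mice, which overexpress human synaptic acetylcholinesterase (AChE), and 2 control pools of the FVB/N strain. Each pool held RNA from 4 mice and was read on 1 single-channel array. The sources used here do not give the promoter that drives the transgene, the strain background of the transgenic mice or the ages. Nor do they tell whether separate mice went into the 2 pools of each group, so the spread between pools may be technical. In pooled tissue, fewer cells of a type and less RNA per cell cannot be told apart.

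Intensities are given as deposited, on a linear scale with a median of 87.45 and 88.2 on the transgenic arrays and 87.4 and 86.6 on the control arrays. Across probe sets, r of the log2 values was 0.983 for the transgenic pair, 0.982 for the control pair and 0.958 to 0.961 between groups, over values that share the same probes. The label of sex could not be checked evenly: Xist read 178.5 and 228.0 in the transgenic pools and 29.3 and 21.1 in the control pools, while 3 Y-linked genes read at most 28.0 on every array. Both control pools share this low Xist reading, so no Sox value can be given without them, and the part of this difference in the results was not tested. The mouse Ache probe set read 365.3 and 355.6 in the transgenic pools and 599.5 and 621.9 in the control pools. It is a probe set for the mouse gene, and the sources used here do not tell whether it also detects the human RNA. Genes that define cortical tissue were present. The neuronal synaptic gene Snap25 read 6878.0 and 7243.5 in the transgenic pools and 9424.2 and 8868.3 in the control pools, and the myelin gene Mbp read between 1575.8 and 2369.7 on the 4 arrays at 96311_at. Gfap, of astrocytes, read 446.7 and 287.7 in the transgenic pools and 492.9 and 511.3 in the control pools at 94144_g_at. Camk2a, of excitatory neurons, was dim, with 31.2 and 62.9 in the transgenic pools and 136.6 and 121.0 in the control pools at its brighter probe set.

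Sox proteins are sorted into subgroups by the sequence of the HMG box. In the brain, SoxB1 proteins (Sox1, Sox2, Sox3) keep neural stem and progenitor cells undifferentiated, and SoxC proteins (Sox4, Sox11) act as progenitors leave the cell cycle and become young neurons. SoxE proteins such as Sox10 drive the glial lineages, SoxD proteins (Sox5, Sox6, Sox13) have no transactivation domain and modulate other Sox proteins, and SoxF proteins (Sox7, Sox17, Sox18) act mainly in endothelial cells. Many act by binding DNA next to a partner factor, as Sox2 does with POU proteins.

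Sox2, the stem cell member that is also kept in adult astrocytes, read 794.1 and 1015.3 in the transgenic pools, against 536.9 and 582.7 in the control pools. Both transgenic pools lay above both control pools, and the lower of them was 1.36 times the higher control pool. The log2 change, transgenic minus control, was 0.68 ± 0.15 (SE) from the limma fit, or 1.61-fold when turned back from the log scale. Sox2 was read by a single probe set (100009_r_at), so no second reading of the gene is at hand. The suffix r in Affymetrix naming marks a probe set for which some rules of probe selection were dropped. In RefSeq the gene lies within the long noncoding RNA gene Sox2ot, and the sources used here do not tell whether the probe set also reads that RNA.

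The other SoxB1 genes did not pass the threshold at any tested probe set. Sox1, a marker of neural progenitors, read 71.1 and 53.8 in the transgenic pools and 54.2 and 73.8 in the control pools at 92342_at, and the groups overlapped. In RefSeq the gene Sox1ot overlaps Sox1, and it is untold whether the probe set reads it. Sox3, the X-linked member, was read by 4 probe sets. At 103302_r_at it read 174.7 and 155.4 in the transgenic pools and 143.6 and 147.7 in the control pools, so that the groups did not overlap, but the log2 change of 0.18 ± 0.19 (SE) was smaller than its error. At 103301_i_at the control pools differed from each other 3.36-fold (93.1 and 27.7) and enclosed both transgenic pools (80.1 and 48.0). The remaining Sox3 probe sets, 161276_i_at and 92264_at, lay under the floor of 19.675 on all 4 arrays. The floor is the 25th percentile of all values, to which lower values were raised before taking logs. The 4 readings of Sox3 thus give no common change, and 2 of them are too dim to compare.

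Sox4, which promotes the survival and maturation of young neurons, was higher in the transgenic pools at both of its probe sets. At 160109_at it read 308.2 and 394.0 in the transgenic pools and 135.6 and 99.2 in the control pools, and at 101430_at it read 234.0 and 302.0 in the transgenic pools and 140.8 and 127.3 in the control pools. The groups did not overlap at either. The log2 changes were 1.59 ± 0.22 (SE), or 3.0-fold, and 0.99 ± 0.20 (SE), or 1.99-fold. The probe sets were made from different source sequences, and both placed transgenic replicate 2 above transgenic replicate 1 and control replicate 1 above control replicate 2. They differed in size, with a lowest transgenic reading 2.27 times the highest control reading at 160109_at and 1.66 times at 101430_at. In RefSeq the noncoding gene Gm46405 overlaps Sox4, and the sources used here do not tell whether either probe set reads it.

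Sox11, the other SoxC member and a factor of newborn neurons, read 476.1 and 298.3 in the transgenic pools and 122.9 and 159.9 in the control pools at 101631_at. The groups did not overlap, although the transgenic pools differed from each other 1.6-fold. The log2 change was 1.43 ± 0.24 (SE), or 2.69-fold. The second probe set (93669_f_at) was dim, with 42.9 and 56.4 in the transgenic pools and 21.4 and 17.6 in the control pools. Its log2 change was 1.26, at least 2.40-fold, since 1 control array lay at the floor, and it fell under the intensity filter described in the processing section. This value rests on the floor: it was 0.07 with a floor set at the 40th percentile and 0.88 with log2(value + 16). Both Sox11 probe sets read higher in the transgenic pools, but they ordered those pools differently: replicate 1 was the higher at 101631_at and replicate 2 at 93669_f_at. All 4 SoxC probe sets, 3 of them tested, had both transgenic pools above both control pools, as did 23.8% of all tested probe sets. The suffix f in Affymetrix naming marks a probe set whose probes may also match other members of a gene family, so the dim Sox11 reading may not be of Sox11 alone.

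**Figure D1:**
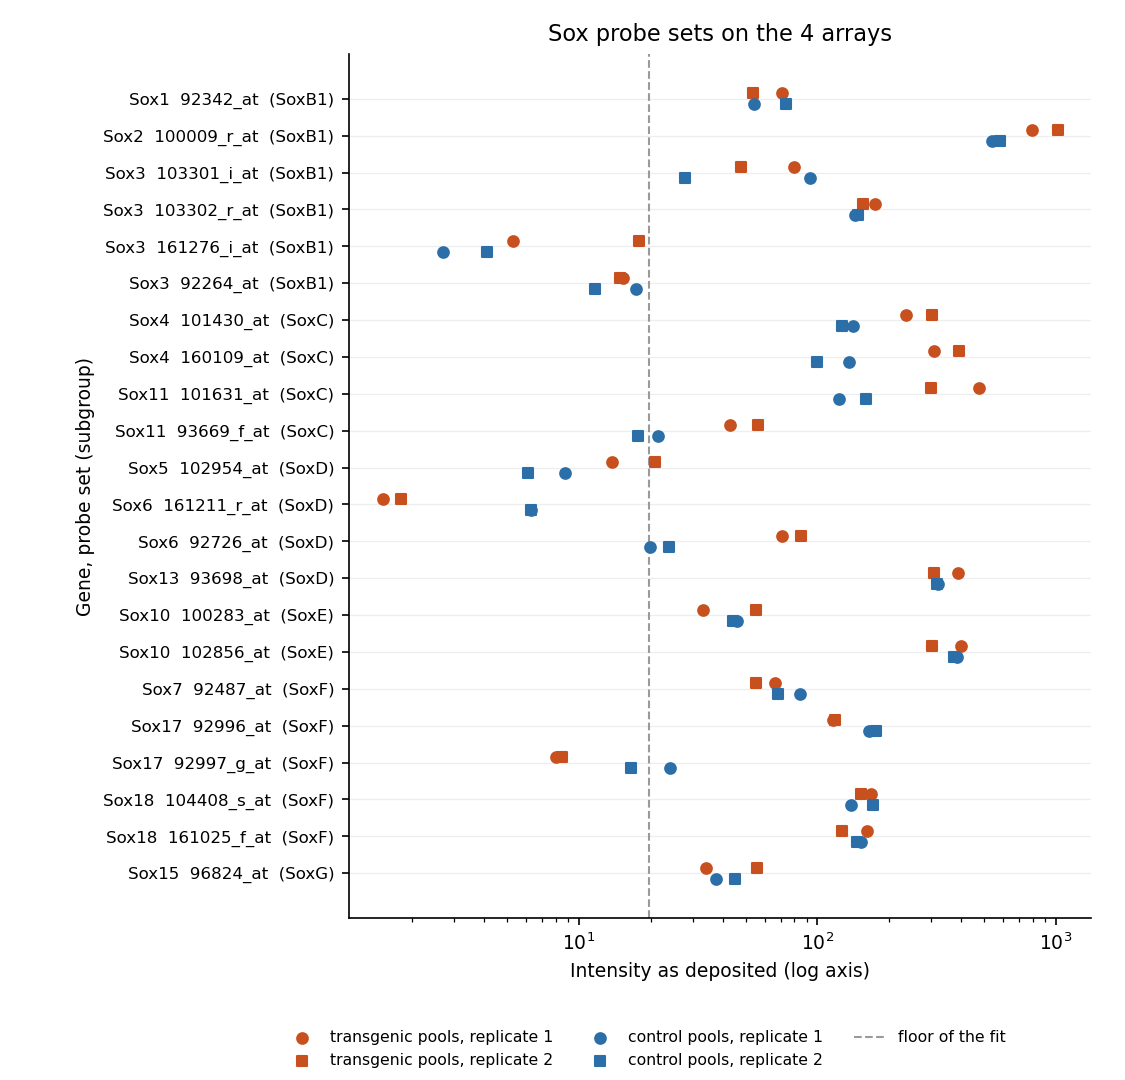
Intensity of each Sox probe set on the 4 arrays (log axis), with transgenic pools in orange above control pools in blue, circles for replicate 1, squares for replicate 2 and a dashed line at the floor of 19.675. Both transgenic pools lie to the right of both control pools at 9 of the 22 probe sets, among them the 4 of Sox4 and Sox11 and the single one of Sox2. They lie to the left at 4, and the groups overlap at 9. Of all tested probe sets, 23.8% have both transgenic pools above and 29.9% below both control pools.

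The promoters of the 3 genes whose probe sets read higher are shown because these genes moved in the same direction. Each sequence is the 250 bases before the gene's start in RefSeq, assembly GRCm38.p6, 5′ to 3′ on the strand of the gene. Sox2 lies on the plus strand at chr3:34649745-34649994, Sox4 on the minus strand at chr13:28953700-28953949 and Sox11 on the minus strand at chr12:27342719-27342968. Capitals mark matches, on either strand, to the CCAAT box (CCAAT), the GC box (GGGCGG), the TATA box (TATAAA), a Sox site (ACAAT) and a site bound by Sox and TCF proteins (ACAAAG).
Sox2: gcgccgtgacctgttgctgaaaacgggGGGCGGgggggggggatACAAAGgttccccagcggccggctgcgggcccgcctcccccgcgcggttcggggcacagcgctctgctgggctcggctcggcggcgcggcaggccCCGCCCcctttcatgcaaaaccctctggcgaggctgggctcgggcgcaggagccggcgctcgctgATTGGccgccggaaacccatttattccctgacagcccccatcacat
Sox4: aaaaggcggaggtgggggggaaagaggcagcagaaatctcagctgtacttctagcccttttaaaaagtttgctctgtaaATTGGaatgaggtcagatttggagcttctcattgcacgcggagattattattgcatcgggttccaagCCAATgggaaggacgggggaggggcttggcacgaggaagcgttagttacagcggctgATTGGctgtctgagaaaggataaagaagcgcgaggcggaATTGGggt
Sox11: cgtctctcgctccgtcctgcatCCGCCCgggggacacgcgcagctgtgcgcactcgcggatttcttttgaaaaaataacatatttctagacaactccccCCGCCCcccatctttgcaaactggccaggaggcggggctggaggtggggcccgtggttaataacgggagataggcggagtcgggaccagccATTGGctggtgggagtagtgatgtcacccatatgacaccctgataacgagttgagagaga
All 3 windows hold the CCAAT box, with 1 match before Sox2, 4 before Sox4 and 1 before Sox11. The matches nearest to the start begin 46, 8 and 60 bases before it. Of the 32851 promoter windows in the table, 33.8% hold this box. It was also found before Sox1, whose groups overlapped, and in some windows of Sox6, but not before Sox5 or Sox15. The GC box, present in 32.7% of windows, occurs 2 times before Sox2 and 2 times before Sox11, and Sox4 has 0 matches. The ACAAAG site, present in 16.5% of windows, occurs 1 time, 206 bases before the start of Sox2. The TATA box and the ACAAT site have 0 matches in the 3 windows, against 12.4% and 27.7% of all windows. The bases G and C make up 72.0% of the Sox2 window, 50.8% of the Sox4 window and 58.0% of the Sox11 window, against a median of 52.4%. No binding was measured in these samples, and a match describes the letters only. Promoter sequence was at hand for 8 of the 13 Sox genes on the array.

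The SoxD genes gave mixed readings, most of them dim. Sox6, which is needed for cortical interneurons to mature and acts in oligodendrocyte precursors, read 71.0 and 85.2 in the transgenic pools and 19.9 and 23.9 in the control pools at 92726_at. The lower transgenic pool was 2.97 times the higher control pool, and the log2 change was 1.83, or 3.57-fold, with control readings just above the floor. With the floor at the 40th percentile the change was 0.61, and with log2(value + 16) it was 1.31, so its size depends on the floor. No test was made at this dim probe set in the main fit, since its mean fell short of the intensity filter. It entered the fit without that filter and with the floor at the 40th percentile, and did not pass the threshold in either. The other Sox6 probe set (161211_r_at) read at most 6.3 on the 4 arrays, under the floor. Sox5, which shapes the identity of deep-layer projection neurons, read 13.7 and 20.8 in the transgenic pools and 8.7 and 6.1 in the control pools at 102954_at, with 3 of 4 arrays under the floor. Sox13, which is known to modulate Wnt signalling through TCF proteins, read 387.5 and 307.3 in the transgenic pools and 319.7 and 318.3 in the control pools at 93698_at. Its groups overlapped, and its log2 change was 0.11 ± 0.17 (SE). RefSeq places noncoding genes within both Sox5 and Sox6, and it is likewise untold whether the probe sets read them.

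Sox10, the glial member on the array, which oligodendrocytes need to make myelin, showed no difference beyond the spread of the pools. At 102856_at it read 399.3 and 303.0 in the transgenic pools and 384.1 and 372.4 in the control pools, a log2 change of -0.12 ± 0.17 (SE). At 100283_at it read 33.2 and 55.5 in the transgenic pools and 46.1 and 44.3 in the control pools. At both probe sets the transgenic pools enclosed both control pools.

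Among the endothelial SoxF genes, Sox17 read lower in the transgenic pools. At 92996_at it read 115.7 and 118.9 in the transgenic pools and 164.8 and 175.2 in the control pools, a log2 change of -0.53 ± 0.20 (SE) that did not pass the threshold. The groups did not overlap, with the lower control pool 1.39 times the higher transgenic pool. The second Sox17 probe set (92997_g_at) read 8.0 and 8.5 in the transgenic pools and 24.1 and 16.6 in the control pools, at or near the floor, so no fold is given. Sox7 read 66.1 and 55.4 in the transgenic pools and 84.6 and 68.2 in the control pools at 92487_at, a log2 change of -0.33 ± 0.30 (SE). These groups did not overlap either, but the gap between them was small beside the spread within each. Sox18 overlapped at both probe sets, with 166.9 and 152.0 in the transgenic pools and 138.3 and 171.5 in the control pools at 104408_s_at (log2 change 0.05 ± 0.20, SE). At 161025_f_at Sox18 read 160.7 and 127.0 in the transgenic pools and 152.9 and 146.7 in the control pools (log2 change -0.07 ± 0.21, SE). No SoxF probe set passed the threshold. The single SoxG gene, Sox15, which is known from muscle precursor cells, read 34.2 and 55.7 in the transgenic pools and 37.5 and 45.0 in the control pools, which overlapped. In RefSeq the gene Mpdu1 overlaps Sox15, and it is untold whether the probe set reads it.

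**Figure D2:**
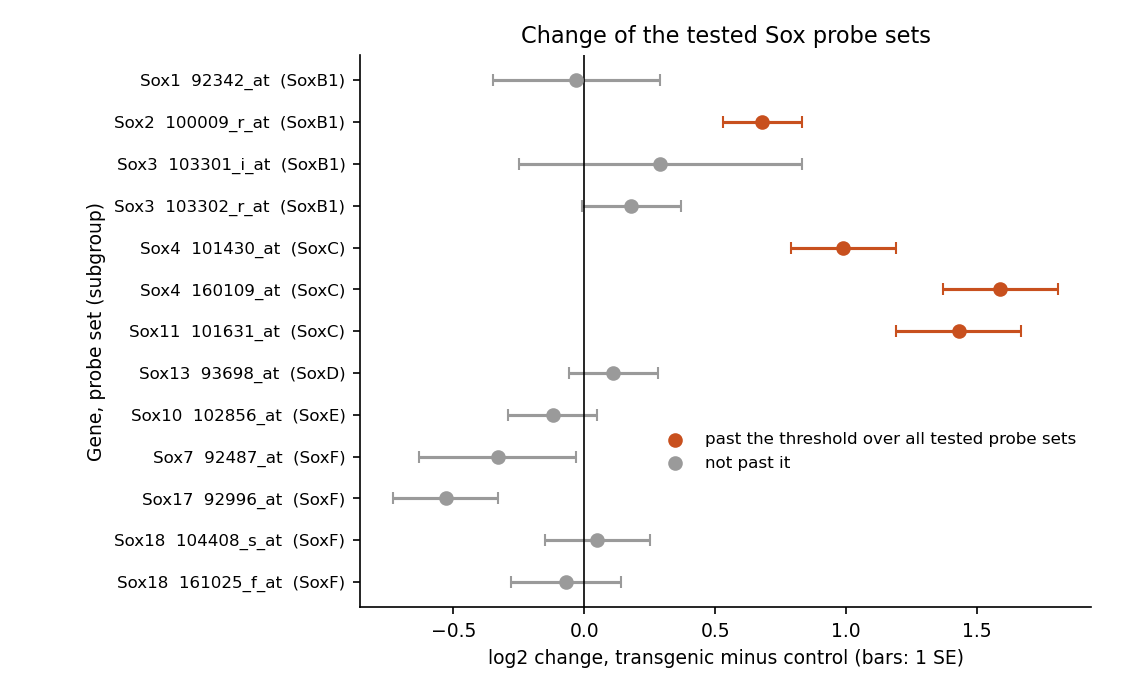
Log2 change (transgenic minus control) of the 13 tested Sox probe sets, ordered by subgroup, with bars of 1 SE from the fit across all tested probe sets. The 4 orange points, those of Sox2, Sox4 and Sox11, run between 0.68 and 1.59, and the 9 grey points run between -0.53 and 0.29.

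Over the family, 13 of the 22 probe sets, for 10 of the 13 genes, passed the intensity filter and entered the fit (limma with Benjamini-Hochberg adjustment over 7453 probe sets, threshold 0.05). Sox5, Sox6 and Sox15 had no probe set in the fit. Of the 13, 4 passed as higher in the transgenic pools, for 3 genes, against 5.46% of all tested probe sets, and 0 passed as lower, against 4.56% of all. At an unadjusted p under 0.05 the numbers were 4 higher and 1 lower (Sox17). The share of all tested probe sets at this unadjusted cut is not given here. Both transgenic pools lay above both control pools at 5 of the 13 and below them at 2, against 23.8% and 29.9% of all tested probe sets. These counts stand on the comparison from which the family was chosen, so nothing is read from their excess. The median log2 change was 0.11 over the 13 tested Sox probe sets and -0.03 over all 7453. In the order of all log2 changes from the highest, Sox4 stood at 160 and 280, Sox11 at 182 and Sox2 at 448 of 7453, while Sox17 stood at 629 from the lowest. By subgroup, 3 of 3 tested SoxC probe sets and 1 of 4 tested SoxB1 probe sets passed, and 0 of 4 SoxF, 0 of 1 SoxD and 0 of 1 SoxE did.

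The number past the threshold changed when an array was left out, which leaves 1 pool in an arm, assumed to vary like the pair of the other group. Without transgenic replicate 1 it was 2 (Sox2 and Sox4 at 160109_at), and without transgenic replicate 2 it was 1 (Sox11 at 101631_at). Without control replicate 1 or control replicate 2 it was 4. Without the filter on dim probe sets 0 of 22 passed with limma, where 6 were higher and 1 lower at an unadjusted p under 0.05. The dim Sox6 at 92726_at and Sox11 at 93669_f_at were among the 6, and no share of all probe sets stands beside these counts. The log2 changes of the 4 Sox probe sets past the threshold kept their sign under every alternative run. Runs that change only the filter or the fit leave these changes as they are. Their groups do not overlap, so leaving out 1 pool cannot turn the sign. The changes lay between 0.51 and 0.86 for Sox2 and between 1.09 and 1.76 for Sox11 at 101631_at. For Sox4 they lay between 1.36 and 1.81 at 160109_at and between 0.81 and 1.17 at 101430_at.

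The tested probe sets whose course over the 4 arrays was most like that of each gene were found by Euclidean distance between log2 values centred on their mean. Nearest to Sox2 were Rgs7, a regulator of G protein signalling (distance 0.0472), Tbrg4, a mitochondrial RNA-processing protein (0.0555), and Vamp4, a vesicle fusion protein (0.0666). Rgs7 read 544.1 and 666.7 in the transgenic pools and 365.9 and 392.8 in the control pools. Nearest to Sox4 at 160109_at were Elavl2, a neuronal RNA-binding protein (0.127), Nr4a2, a nuclear receptor (0.158), and Klf3, a Kruppel-like factor (0.216). Elavl2 read 293.9 and 385.0 in the transgenic pools and 117.8 and 91.6 in the control pools, close to the readings of Sox4 in ratio. Nearest to Sox11 at 101631_at were Acaa1b, a peroxisomal thiolase (0.158), Baiap2, a postsynaptic scaffold protein (0.312), and Rasd1, a small GTPase (0.358). Acaa1b shared with Sox11 the higher reading in transgenic replicate 1, with 186.3 and 135.3 in the transgenic pools and 50.7 and 69.1 in the control pools. Other tested probe sets of 3 of these genes had a change of the other sign: Vamp4 at 93191_at had -0.17 ± 0.14, Tbrg4 at 100442_at -0.12 ± 0.18 and Baiap2 at 99337_at -0.54 ± 0.19 (SE). With 4 arrays in 2 groups, a small distance says little more than that the genes have a like change and a like order of pools.

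**Figure D3:**
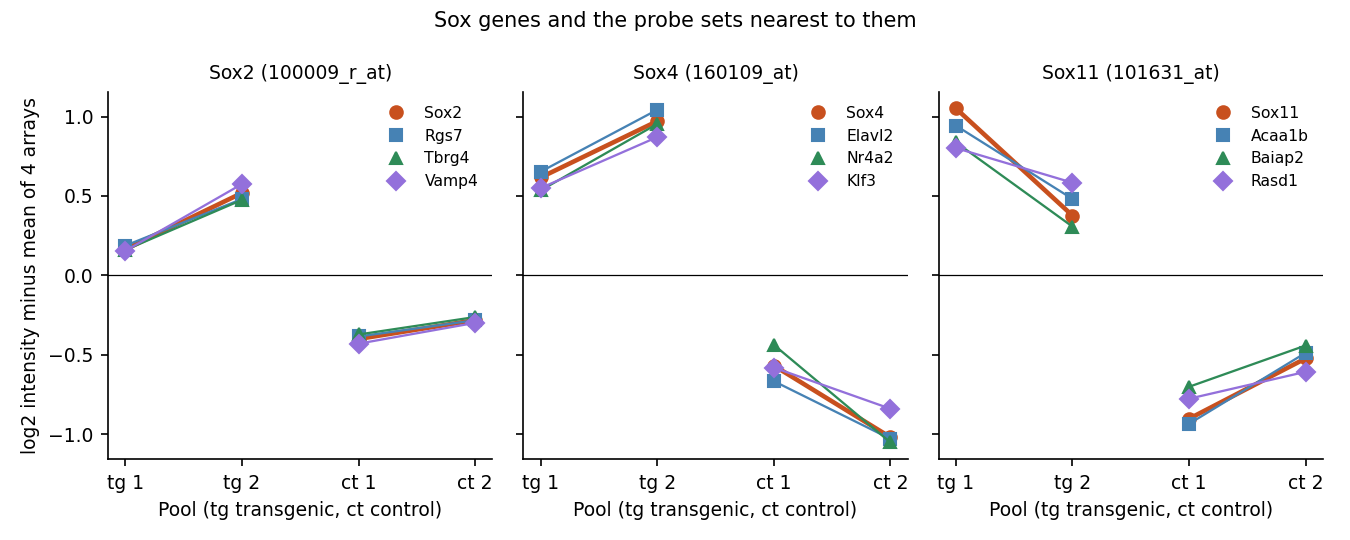
Log2 intensity minus its mean over the 4 arrays for Sox2, Sox4 and Sox11 (orange) and the 3 nearest genes of each, in transgenic pools 1 and 2 and control pools 1 and 2; lines join pools of the same group. Sox2 and Sox4 are higher in transgenic replicate 2 than in replicate 1, and Sox11 at 101631_at is higher in replicate 1.

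Genes of the cells and partners for which Sox proteins are known were then read from their brightest tested probe set. Adjusted p-values below are from limma with Benjamini-Hochberg adjustment over all 7453 probe sets. With 1 probe set per gene, 5.00% of 5701 tested genes passed as higher and 4.49% as lower, and the median log2 change of these genes was -0.04. No such share is given for the counts at an unadjusted p under 0.05 in the lists below, so nothing is read from those counts.

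Of 18 tested neural stem and progenitor genes, 2 rose and 1 fell, and the median log2 change was 0.36. The rises were Id4, an inhibitor of basic helix-loop-helix factors, by 1.81 ± 0.14 (SE; adjusted p = 2.80e-05), and Fabp7, a fatty acid binding protein of radial glia and astrocytes, by 1.54 ± 0.12 (adjusted p = 3.27e-05). Id4 read 824.0 and 809.5 in the transgenic pools and 225.5 and 240.2 in the control pools. Prom1, the stem cell surface protein prominin, fell by 0.72 on the log2 scale (adjusted p = 0.0295), and it no longer passed when any 1 array was left out (adjusted p between 0.0503 and 0.152). Another Prom1 probe set (93390_g_at) had a change of -0.47, not past the threshold. The intermediate filament gene Nes, a standard marker beside Sox2, had 0.36 ± 0.21 (adjusted p = 0.329), and the cell division marker Mki67 had 0.38 ± 0.38 (adjusted p = 0.6).

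The 23 tested genes of immature neurons and neuroblasts, where Sox4 and Sox11 act, had a median log2 change of 0.22. Of these, 5 rose and 0 fell (8 higher and 2 lower at an unadjusted p under 0.05). Neurod2, a transcription factor of cortical projection neurons, rose by 2.07 ± 0.17 (SE; adjusted p = 4.00e-05), with 621.3 and 626.3 in the transgenic pools and 167.2 and 132.1 in the control pools. Meis2, a homeobox factor, rose by 1.09 (adjusted p = 0.00800, but 0.102 or 0.0506 when transgenic replicate 1 or 2 was left out). The surface protein Cd24a rose by 0.76 (adjusted p = 0.0192, but 0.122 or 0.0913 in the same way). The remaining rises, named after their values were seen, were Eomes, of intermediate progenitors (adjusted p = 0.0396), and the polysialyltransferase St8sia4 (adjusted p = 0.0429). The control mean of Eomes, 33.0, lay under the filter's 49.4, so it was tested only through its transgenic pools. Dcx and Tubb3, which SoxC proteins are known to activate, did not pass. Dcx had 0.27 ± 0.27 (adjusted p = 0.604), and Tubb3 had -0.08 ± 0.10 (adjusted p = 0.703) at 160462_f_at. With the suffix f, its probes may also match other members of the gene family, so this reading may not be of Tubb3 alone. The other tested Tubb3 probe set also has the suffix f and did not pass. Dcx read 293.2 and 279.3 in the transgenic pools and 332.4 and 169.1 in the control pools. Without transgenic replicate 1 or 2, 1 gene of this list passed, and without control replicate 2, 3 did.

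The glial lists differed from each other in their counts. The 14 tested genes of the oligodendrocyte lineage and myelin, the cells of Sox10, had a median log2 change of 0.09. Of these, 0 rose and 1 fell (0 higher and 2 lower at an unadjusted p under 0.05). The fall was Qdpr, an enzyme of biopterin recycling, by 0.64 on the log2 scale (adjusted p = 0.00894). Mobp, a myelin gene counted as not passing at its brightest probe set, fell by 1.02 at 99047_at. For Qdpr, leaving out transgenic replicate 1 took its adjusted p to 0.0815. Of 19 tested astrocyte genes, 5 rose and 4 fell, with a median of -0.07. The 4 that fell were Mt3 (log2 change -0.90), S100b (-0.67), Clu (-0.53) and Apoe (-0.40), with adjusted p between 0.00262 and 0.0344. The largest rises were Nfix and Nfib, by 5.07 and 4.84, and Aqp4, by 3.69 (adjusted p at most 1.49e-05). Of the 5 that rose, 3 (Nfib, Aqp4 and the bicarbonate transporter Slc4a4) had a control mean under the filter and were tested only through their transgenic pools, and Nfib had 3.85 with the floor at the 40th percentile. Nfix has another probe set (100307_at), whose change was 0.17, not past the threshold. Aqp4, the water channel of astrocyte end-feet, read 424.3 and 684.5 in the transgenic pools and 36.7 and 47.5 in the control pools at 102704_at. Cst3, the protease inhibitor cystatin C, was counted as not passing but fell by 0.61 at 161522_i_at. The summed intensity of the 19 astrocyte genes was 43753.5 and 41822.4 in the transgenic pools and 46176.5 and 45735.0 in the control pools. Bright genes weigh most in this sum, among them Apoe, 1 of the 4 that fell while 5 rose. Apoe had a mean of 7778.5 in the transgenic and 10235.4 in the control pools. The sum is thus no measure of astrocyte content, and the part of astrocyte content in the Sox2 reading was not tested. Without transgenic replicate 1 or 2, 4 or 5 astrocyte genes passed, and without control replicate 1, 2 oligodendrocyte genes did.

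The 11 tested endothelial genes, of the cells of Sox7, Sox17 and Sox18, had a median log2 change of -0.02. Of these, 1 rose and 0 fell (2 higher and 1 lower at an unadjusted p under 0.05). The rise was the growth factor receptor Flt1, by 0.85 ± 0.18 (SE; adjusted p = 0.0185), with 214.4 and 220.3 in the transgenic pools and 119.5 and 121.5 in the control pools. Leaving out transgenic replicate 1 or 2 took its adjusted p to 0.0986 or 0.123, with changes of 0.87 and 0.83. Its other tested probe set (98453_at) also passed, at least 8.19-fold higher in the transgenic pools, a bound because the control arrays lay under the floor there. The control mean of 18.2 at 98453_at lay under the filter, so that probe set was tested only through its transgenic pools. The summed intensity of the 11 genes was 2666.4 and 2366.2 in the transgenic pools and 2343.2 and 2444.7 in the control pools, and the part of endothelial content in the lower Sox17 reading was not tested.

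The 20 tested partner factors of Sox proteins and genes of the beta-catenin pathway had a median log2 change of 0.22. Of these, 3 rose and 0 fell (5 higher and 1 lower at an unadjusted p under 0.05). The POU factor Pou3f4 read 183.9 and 143.5 in the transgenic pools and 5.8 and 35.2 in the control pools, with 1 control array at the floor. It was at least 6.17-fold higher (adjusted p = 0.00120, and 0.0661 without transgenic replicate 1). Its log2 change was 2.63 ± 0.35 (SE), and 1.67 with the floor at the 40th percentile. The zinc finger factors Zfp148 and Sp1 rose by 2.51 ± 0.24 and 2.45 ± 0.30 (SE; adjusted p = 0.000116 and 0.000581). Pou3f4 and Sp1 had control means of 20.5 and 28.9, under the filter, so both were tested only through their transgenic pools. In addition, 2 genes counted as not passing at their brightest probe set rose at others. Mef2c, a MADS-box factor of neurons and muscle, had 0.14 at 97357_at but rose by 4.74 at 104590_at, by 3.32 at 104591_g_at and at least 48.4-fold at 104592_i_at. At 104592_i_at the control mean of 24.3 lay under the filter, so that probe set was tested only through its transgenic pools. Ctbp2, a co-repressor, had 0.47 at 160979_at but rose by 1.56 at 92554_at. The POU factor Pou3f1 had the lowest change of the list, -0.99 ± 0.28 (adjusted p = 0.0546), and Ctnnb1, which encodes beta-catenin, had 0.10 ± 0.13 (adjusted p = 0.721). These POU genes had changes of opposite sign, of which that of Pou3f4 passed. Without control replicate 2, 5 genes of the list passed.

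Markers of tissue next to the cortex were read for comparison. Of 8 tested genes of choroid plexus and meninges, 0 passed (1 higher and 1 lower at an unadjusted p under 0.05), with 1 passing without control replicate 1, and their summed intensity was 10602.2 and 10607.1 in the transgenic pools and 11179.9 and 10868.5 in the control pools. Igfbp2 had the smallest p, with a log2 change of 0.38 ± 0.13 (adjusted p = 0.114). Ptgds, the prostaglandin D synthase of the meninges, fell by 0.64 at 92546_r_at, which is not its brightest probe set. Of 3 tested cartilage genes, targets of SoxD and SoxE proteins, 0 passed, with 1 at an unadjusted p under 0.05: Col9a1, with 170.9 and 127.9 in the transgenic pools and 44.9 and 98.3 in the control pools (log2 change 1.15 ± 0.36, adjusted p = 0.0773). Without control replicate 1 its change was 0.59 (adjusted p = 0.314) and without control replicate 2 it was 1.72 (adjusted p = 0.000244), each with a lone control pool. Some genes stand in more than 1 list, among them Pax6 and Gfap.

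**Figure D4:**
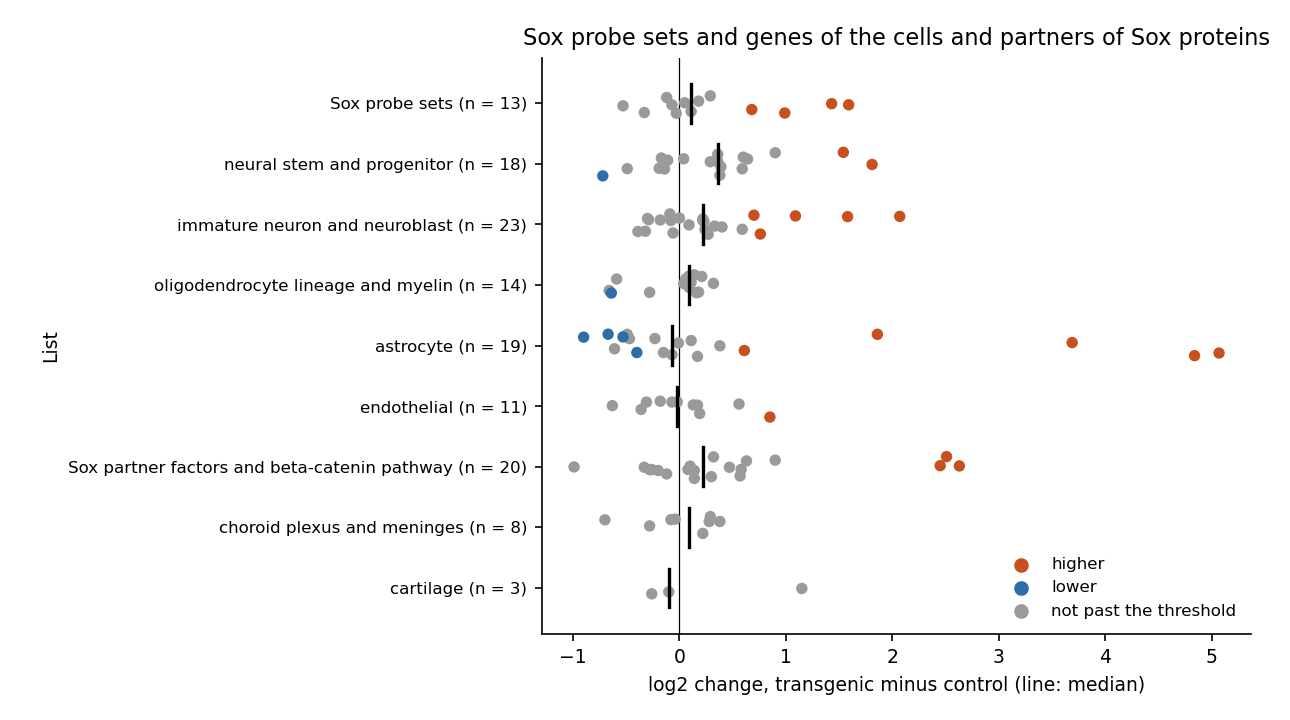
Log2 change (transgenic minus control) of the tested Sox probe sets and of the genes of each list, 1 point each, with a black line at the median, orange for higher and blue for lower past the threshold. The 4 highest Sox points lie between 0.68 and 1.59, and the astrocyte list holds both falls and the largest rises, up to 5.07.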

How the data were processed

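RNA of 4 pools was read on single-channel arrays. The authors deposited 1 intensity per probe set and array; the sources used here do not name the tool that made it. The deposited columns have nearly equal trimmed means (249.5 to 249.6 between the 2nd and 98th percentiles), so each array had been scaled, and their medians differ by 1.85%, so no further normalization was applied. After 66 control probe sets were set aside, 10833 of 12422 probe sets had a single gene name, 396 several and 1193 none. Of those with a single name, 10817 were matched by gene identifier to RefSeq (GRCm38.p6) and took its symbol.

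Values were floored at 19.675 (25th percentile) and log2-transformed. Probe sets with a mean above the 40th percentile (an intensity of 49.4), 7453 in all, entered a fit in R 4.3.3 with limma 3.58.1 (lmFit, eBayes with an intensity trend, two-sided; checked on simulated data). The fit had 2 residual and 7.51 prior degrees of freedom. Precision is limited by the number of arrays. Groups and replicate numbers came from titles. Suffixes of probe set names follow Affymetrix usage. Named genes were all Sox probe sets, the 3 nearest genes to Sox2, Sox4 and Sox11, fixed label and tissue checks, and in each list the 3 members of smallest p past the threshold (if none passed, the 1 of smallest p); other names were added to show standard markers, partners or known targets after their values were seen. The members and lists were chosen with earlier results of these data known. Batches are not named by the labels used here, so batch and group cannot be told apart.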

Additional observations from a re-analysis of the deposited data

How the results depend on the processing

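Under 13 alternatives the log2 changes of the 4 Sox probe sets past the threshold kept their sign. Only the runs with another floor, log2(value + 16) or another normalization could have turned that sign. Of the other Sox probe sets, none past the threshold, 8 had values of both signs, the widest span being -0.59 to 1.16 for Sox3 at 103301_i_at. Of 286 recomputed Sox log2 changes 276 moved by no more than the spread between pools, but many of them could not have moved further. Runs that change only the filter, trend, prior or block leave the log2 change as it is. Leaving out 1 pool cannot move it beyond that spread. Only runs with another floor, log2(value + 16) or another normalization could. There, 10 moved by more, all with another floor or with log2(value + 16). Sox11 at 93669_f_at had 0.07 and Sox6 at 92726_at 0.61 with the floor at the 40th percentile. Without the filter 48 probe sets passed in all (747 with it), 0 of the Sox probe sets, 1 stem and progenitor gene, 0 immature neuron, 0 oligodendrocyte, 1 astrocyte, 0 endothelial and 0 partner genes, where 12422 probe sets shared the adjustment. Without the intensity trend 395 passed in all, with 3 Sox probe sets (Sox2 no longer among them), 2 immature neuron, 0 oligodendrocyte and 4 astrocyte genes. A filter at the 60th percentile left 1 partner gene, Zfp148, since Pou3f4 and Sp1 lay under it. A floor at the 40th percentile left 3 immature neuron genes; the cause was not tested for this or for the trend. Leaving out 1 array, with the lone pool assumed to vary like the other group, gave 303 to 749 calls in all and 1 to 4 for Sox. By list, the range was 2 to 4 (stem and progenitor), 1 to 6 (immature neuron), 0 to 2 (oligodendrocyte), 4 to 8 (astrocyte), 0 to 1 (endothelial), 2 to 5 (partners), 0 to 1 (choroid plexus and meninges) and 0 to 1 (cartilage). The smallest totals were those without transgenic replicate 1 (303) or 2 (313). With the replicate number as a replicate block 892 passed, 4 of them Sox. The labels do not tie equal numbers together, and deviations of equally numbered pools correlated at 0.0555, so the numbers were not used as pairs. Quantile normalization and median scaling left 4 Sox probe sets past the threshold and moved the median change of all tested probe sets from -0.034 to -0.043 and -0.048. Dim probe sets limit what can be said of Sox5, Sox6 and Sox15.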
